A study of Mus musculus with 24 samples.

Results

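The genes of interleukin-6 family signalling described here are the 10 whose symbols were listed for the family: the ligands Il6, Osm, Lif and Il11, the receptor chains Il6ra, Osmr, Lifr and Il6st, and the downstream genes Socs3 and Stat3. All 10 were found among the 26253 genes of the count table, each in 1 row. They were measured by RNA sequencing of total RNA from whole mouse lung. Mice on a control diet were compared with mice whose diet was rich in docosahexaenoic acid (DHA), an omega-3 fatty acid, and on either diet the exposure was to filtered air or to ozone, an oxidant irritant of the airways. The 4 groups are control-diet air, control-diet ozone, DHA-diet air and DHA-diet ozone, with 6 libraries each and 24 in all. The labels give no strain, sex, age, dose or time after exposure, and they do not say whether each library came from its own mouse, so a p-value speaks only of the spread among the libraries, which may be technical.

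Interleukin-6 family cytokines are signalling proteins that share the receptor chain gp130, encoded by Il6st. Interleukin-6, interleukin-11 and LIF first meet a chain of their own, whereas oncostatin M binds gp130 first and then recruits the chain encoded by Osmr or Lifr. The assembled receptor activates Janus kinases, which phosphorylate the transcription factor STAT3. STAT3 then switches on its target genes, among them Socs3, whose product binds gp130 and ends the signal. In the lung these cytokines are made by macrophages, neutrophils, epithelium and fibroblasts and are known for their part in the acute response to injury.

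Total counts ran from 18053493 to 26225630 per library. Levels are counts-per-million (CPM) with library sizes scaled by TMM, and changes come from 1 edgeR quasi-likelihood model over all 24 libraries, in which 16153 genes passed a filter on low counts. All 10 family genes passed it. A gene was called when its p, adjusted by Benjamini-Hochberg over all 16153 genes, was under 0.05, and "edgeR adjusted p" below means that value. Lung identity was plain: Sftpc, the alveolar type 2 surfactant protein, lay at 15432 CPM or more and Scgb1a1, the club cell secretory protein, at 53931 CPM or more in each of the 24 libraries. In whole tissue, fewer cells of a type and less RNA per cell cannot be told apart. DHA-diet ozone libraries 1 and 2 stood apart from the other 4 of their group. The summed level of 10 neutrophil markers was 279.2 and 364.8 CPM in these libraries and 78.35 to 113.5 CPM in the others. In earlier results of these data, not repeated here, control-diet air libraries 1 to 3 also stood apart. Changes of the family genes that rest on either set are therefore given with and without it. A fit without a set has fewer libraries, so a call lost there need not mean a smaller change. Marker calls, pathway-list counts and likeness are given with all 24 libraries only.

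To compare genes with each other, levels were divided by the length of all merged exons (GENCODE vM21). In control-diet air Il6st was the highest at 30.6 ± 2.66 CPM per kb (SD, n = 6), followed by Stat3 at 20.1 ± 1.08, Socs3 at 13.6 ± 1.35 and Lifr at 9.37 ± 0.638 CPM per kb. Il6ra followed at 5.45 ± 0.465 and Osmr at 4.19 ± 0.161 CPM per kb. The 4 ligands came last, with Lif at 1.246 ± 0.247, Osm at 0.613 ± 0.211, Il11 at 0.383 ± 0.153 and Il6 at 0.151 ± 0.0731 CPM per kb. Of the neighbours in this order Osm and Il11 overlapped, from 0.352 to 0.909 and from 0.247 to 0.640 CPM per kb, and the other 8 neighbouring pairs did not. Il6 transcripts were so few that a library held 3 to 40 counts.

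In the coordinates of the count table (mm39, per the submitters' processing notes), Osm spans chromosome 11 from 4186785 to 4191027. Lif follows on the same chromosome from 4207568 to 4222515, which leaves 16541 bases and 0 other listed genes between them. Socs3 and Stat3 are also on chromosome 11, from 117856913 to 117860193 and from 100777632 to 100830367. Osmr, from 6843058 to 6903795, and Lifr, from 7159053 to 7226971, are neighbours on chromosome 15 with 255258 bases and 0 listed genes between them. The rest are dispersed: Il6 on chromosome 5 (30218112 to 30224974), Il11 on chromosome 7 (4775377 to 4785857), Il6ra on chromosome 3 (89776631 to 89820504) and Il6st on chromosome 13 (112600604 to 112643395).

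RefSeq promoter windows of GRCm38.p6, from 250 bases before to 50 after the start, matched 9 of the 10 genes, all but Osm, with 11 windows in all. They were searched for TTCNNNGAA, the core bound by STAT proteins, for the AP-1 motif TGANTCA and for the CRE motif TGACGTCA. Each of these motifs reads the same on both strands, and no 2 of them share a match here. Sequences are shown for Socs3, which rose with ozone on both diets and has the only STAT core among the 11 windows, and for Lif and Il6, the ligand genes whose single window has an AP-1 match. They run 5′ to 3′ on the strand of the gene, with the matched motif in capitals. Socs3 is at chr11:117969317-117969616 on the minus strand, Lif at chr11:4257318-4257617 on the plus strand and Il6 at chr5:30012864-30013163 on the plus strand.
Socs3: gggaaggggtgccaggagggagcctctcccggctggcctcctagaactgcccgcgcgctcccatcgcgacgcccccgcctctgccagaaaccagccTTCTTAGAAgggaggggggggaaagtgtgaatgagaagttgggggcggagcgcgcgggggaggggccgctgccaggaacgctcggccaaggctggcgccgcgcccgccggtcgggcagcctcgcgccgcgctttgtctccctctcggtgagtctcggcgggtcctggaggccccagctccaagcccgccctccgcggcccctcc
Lif: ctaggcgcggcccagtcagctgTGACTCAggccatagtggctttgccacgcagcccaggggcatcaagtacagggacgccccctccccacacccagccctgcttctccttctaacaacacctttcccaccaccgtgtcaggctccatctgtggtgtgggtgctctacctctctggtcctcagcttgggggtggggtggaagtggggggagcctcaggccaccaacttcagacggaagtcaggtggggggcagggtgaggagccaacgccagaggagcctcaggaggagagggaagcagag
Il6: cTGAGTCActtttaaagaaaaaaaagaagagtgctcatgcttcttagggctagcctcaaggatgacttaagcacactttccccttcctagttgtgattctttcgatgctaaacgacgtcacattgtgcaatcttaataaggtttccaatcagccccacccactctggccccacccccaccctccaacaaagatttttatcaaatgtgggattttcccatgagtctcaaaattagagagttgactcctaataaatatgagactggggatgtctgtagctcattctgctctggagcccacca
The STAT core of Socs3 begins 154 bases before the start, and 8.3% of 32851 windows of this length hold such a core. AP-1 matches begin 228 bases before the start in Lif and 249 bases before it in Il6. Osmr and 1 of the 2 Il11 windows, that at chr7:4778092-4778391, also hold an AP-1 match, beginning 3 bases after and 98 bases before the start, against 7.81% of all windows. The CRE motif was found in 0 of the 11 windows, and in 1.79% of all windows. A match is a run of letters and does not show binding.

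Ozone was followed by higher Osm and Socs3 and slightly higher Stat3 on both diets. On the control diet 3 of the 10 genes were called higher and 0 lower, where 16.8% of all genes tested were called (8.93% higher and 7.87% lower). On the DHA diet 4 were called higher, the same 3 genes and Lif, and 1 lower, Lifr, where 23.7% of all genes were called (12.7% higher and 11% lower). With both diets averaged, 6 were higher and 1 lower, against 35.4% of all genes (18.5% higher and 16.9% lower). The median log2 fold change of the 10 genes was 0.191 on the control and 0.290 on the DHA diet, beside -0.00553 and -0.0112 over all genes.

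**Figure D1:**
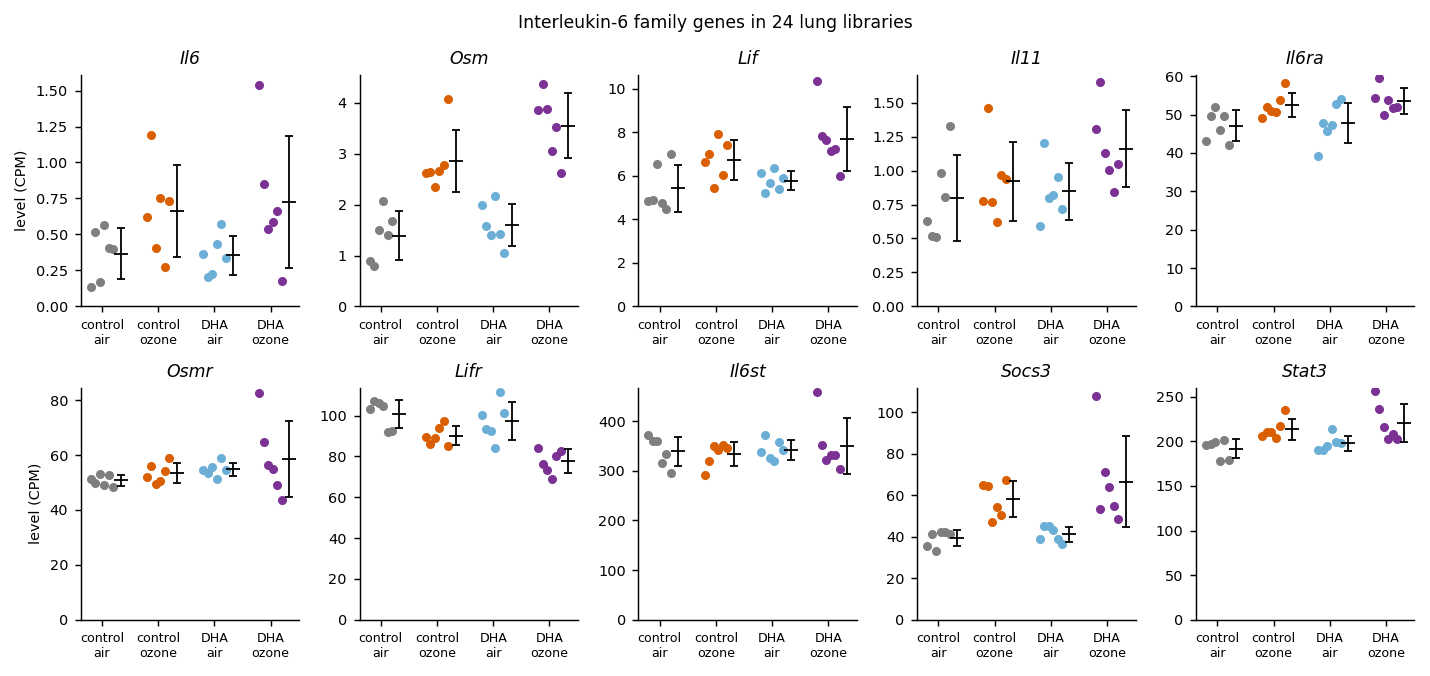
Level of each of the 10 genes in CPM (y axis, from 0) in every library of the 4 diet and exposure groups (x axis). Points are libraries, in the order of their numbers from left to right within a group, and the cross and bars are the mean and SD of 6 libraries. Osm and Socs3 of every ozone library lie above every air library of the same diet, and the first DHA-diet ozone library is the highest of 24 for 6 genes.

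Osm, the oncostatin M gene of activated macrophages and neutrophils, showed the largest called change. Control-diet levels ran from 0.799 to 2.06 CPM in air (median 1.45) and from 2.34 to 4.07 CPM in ozone (median 2.66). In DHA-diet mice it ran from 1.05 to 2.16 CPM in air (median 1.49) and from 2.62 to 4.38 CPM in ozone (median 3.69). Air and ozone libraries did not overlap on either diet, as was true of 7.76% of all genes on the control and 9.03% on the DHA diet. Group means were 1.39 ± 0.479 and 2.86 ± 0.612 CPM on the control diet and 1.60 ± 0.412 and 3.55 ± 0.634 CPM on the DHA diet (SD, n = 6 each). The control-diet rise was 2.05-fold (log2 fold change 1.03 ± 0.21 SE, edgeR adjusted p = 0.00115). It was 2.21-fold with DHA (log2 fold change 1.15 ± 0.20 SE, edgeR adjusted p = 1.76e-04). Osm kept its call in every alternative run, though without control-diet air libraries 1 to 3, of which libraries 1 and 2 were the lowest of all, the control-diet change was 0.72 (edgeR adjusted p = 0.0409). The highest control-diet ozone value, 4.07 CPM, was that of library 6, with the other 5 between 2.34 and 2.78 CPM.

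Lif, leukaemia inhibitory factor, moved less. In control-diet mice it ran from 4.48 to 7.01 CPM in air (median 4.87) and from 5.45 to 7.92 CPM in ozone (median 6.82). In DHA-diet mice it ran from 5.22 to 6.34 CPM in air (median 5.79) and from 5.97 to 10.4 CPM in ozone (median 7.45), and the groups overlapped on both diets. The DHA-diet rise was 1.34-fold (log2 fold change 0.42 ± 0.13 SE, edgeR adjusted p = 0.0171). It rested on library 1 of the ozone group, the highest of all, without which it was 0.31 (edgeR adjusted p = 0.0613), and without ozone libraries 1 and 2 it was 0.28 (edgeR adjusted p = 0.116). The control-diet value of 0.31 ± 0.13 was not called (edgeR adjusted p = 0.0993), and was called without control-diet air library 6 (0.39, edgeR adjusted p = 0.0385) and with limma-voom. Averaged over diets Lif rose 1.29-fold (edgeR adjusted p = 0.00252).

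Il6 encodes the founding cytokine of the family. Air libraries held 3 to 11 counts on the control and 5 to 15 on the DHA diet, and ozone libraries 7 to 31 and 4 to 40 counts. Its level ran from 0.135 to 0.568 CPM in control-diet air (median 0.401) and from 0.270 to 1.19 CPM in control-diet ozone (median 0.674). With DHA it ran from 0.207 to 0.573 CPM in air (median 0.350) and from 0.174 to 1.54 CPM in ozone (median 0.624). Groups overlapped on both diets, and the DHA-diet ozone group held the highest value of all, in library 1, and a value near the lowest, in library 6. Neither diet alone gave a call: log2 fold changes were 0.87 ± 0.42 SE (edgeR adjusted p = 0.164) and 1.03 ± 0.41 SE (edgeR adjusted p = 0.0709). The first was 0.53 without control-diet air libraries 1 to 3 (edgeR adjusted p = 0.544). The second was called without DHA-diet ozone library 6 (1.23, edgeR adjusted p = 0.0214), and was 0.63 without ozone library 1 (edgeR adjusted p = 0.282) and 0.46 without ozone libraries 1 and 2 (edgeR adjusted p = 0.492). Averaged over diets Il6 rose 1.93-fold (95% interval 1.27 to 2.95, edgeR adjusted p = 0.0136). That call was lost without control-diet air libraries 1 to 3 (0.78, edgeR adjusted p = 0.0691) and without DHA-diet ozone libraries 1 and 2 (0.66, edgeR adjusted p = 0.0765).

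Il11, interleukin-11, a cytokine of stromal cells, was also sparse, with 11 to 38 counts per library. Its medians were 0.717 and 0.856 CPM in air and ozone on the control diet and 0.807 and 1.09 CPM on the DHA diet, and air and ozone libraries overlapped on both diets. Neither change was called, at 0.22 ± 0.26 SE (edgeR adjusted p = 0.597) and 0.44 ± 0.25 SE (edgeR adjusted p = 0.205). The 95% intervals of the folds, from 0.812 to 1.68 and from 0.955 to 1.92, include no change on both diets and do not exclude a rise of up to their upper bounds.

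Lifr, the ligand-binding chain for LIF, was the receptor gene that fell. On the control diet it ran from 92.2 to 107 CPM in air (median 104) and from 85.04 to 97.5 CPM in ozone (median 89.4), with overlap. On the DHA diet it ran from 84.3 to 111 CPM in air (median 97.0) and from 68.9 to 84.1 CPM in ozone (median 78.5). All 6 ozone libraries lay below all 6 air libraries there, where 9.03% of all genes did not overlap. Its DHA-diet level fell to 0.798-fold (log2 fold change -0.33 ± 0.060 SE, edgeR adjusted p = 3.57e-04), and this call held in all 36 alternatives. On the control diet the value was -0.16 ± 0.060 SE (edgeR adjusted p = 0.0632), just outside the threshold. It was called without control-diet air library 5 or 6, control-diet ozone library 5, DHA-diet air library 4 or 5, or DHA-diet ozone library 1, with adjusted p from 0.0325 to 0.0458. DESeq2, limma-voom, library totals without further scaling, a fit of these 2 groups alone and the fit without control-diet air libraries 4 to 6 also called it. Without control-diet air libraries 1 to 3 it was -0.10 (edgeR adjusted p = 0.417). Averaged over diets the level was 0.845-fold (edgeR adjusted p = 7.2e-05).

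Il6ra, the interleukin-6 binding chain of macrophages and hepatocytes, ran from 41.9 to 52.0 CPM in control-diet air (median 47.8) and from 49.1 to 58.1 CPM in control-diet ozone (median 51.5). With DHA it ran from 39.3 to 54.1 CPM in air (median 47.5) and from 49.997 to 59.4 CPM in ozone (median 52.9). The groups overlapped, and neither diet alone gave a call (edgeR adjusted p = 0.104 and 0.0735). The latter passed without DHA-diet air library 5 or 6 (edgeR adjusted p = 0.0394 and 0.0312). Averaged over diets Il6ra rose 1.12-fold (log2 fold change 0.16 ± 0.047 SE, edgeR adjusted p = 0.0089), a call kept in all 35 alternatives.

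Il6st, the shared gp130 chain, and Osmr, the oncostatin M chain, were not called in any ozone comparison. Il6st medians were 347 and 344 CPM on the control and 340 and 332 CPM on the DHA diet, with log2 fold changes of -0.03 ± 0.076 and 0.03 ± 0.076 SE. Averaged over diets its fold had a 95% interval from 0.928 to 1.08. Osmr medians were 50.6 and 53.0 CPM on the control and 54.6 and 55.5 CPM on the DHA diet, with log2 fold changes of 0.07 ± 0.093 and 0.09 ± 0.093 SE, and the interval of its averaged fold ran from 0.966 to 1.16. DHA-diet ozone library 1 was the highest for both genes, at 459 CPM for Il6st and 82.6 CPM for Osmr. For Osmr library 2 of that group came next, at 64.65 CPM. Without library 1 the DHA-diet values turned negative, -0.06 for Il6st and -0.03 for Osmr, and stayed uncalled. Without libraries 1 and 2 they were -0.08 and -0.10, also uncalled.

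**Figure D2:**
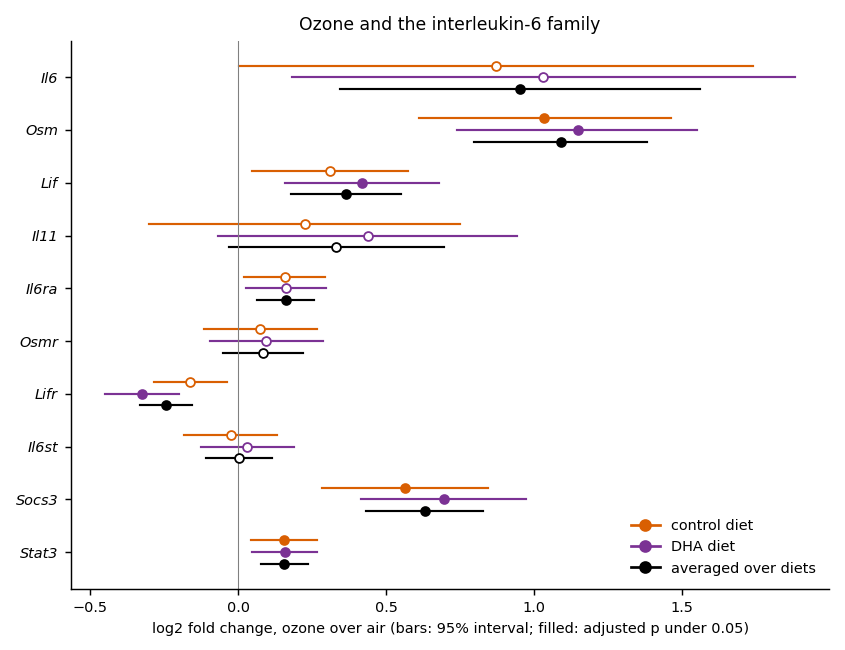
Fitted log2 fold change of ozone over air (x axis) for each of the 10 genes (y axis) on the control diet, on the DHA diet and averaged over diets, with 95% intervals. Filled points are called at an adjusted p under 0.05. Osm lies near 1 on both diets, Lifr is below 0, and Il6 and Il11 have the widest intervals.

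Socs3, the feedback inhibitor that STAT3 induces, rose on both diets. Control-diet levels ran from 33.1 to 42.1 CPM in air (median 41.3) and from 47.2 to 67.5 CPM in ozone (median 59.3). With DHA the level was from 36.6 to 44.97 CPM in air (median 41.0) and from 48.4 to 108 CPM in ozone (median 59.3). Every ozone library lay above every air library of the same diet, where 7.76% of all genes on the control and 9.03% on the DHA diet did not overlap. Means were 39.3 ± 3.91 and 58.1 ± 8.58 CPM on the control diet and 41.2 ± 3.58 and 66.6 ± 21.9 CPM on the DHA diet (SD, n = 6 each), with the wide spread of the last group set by library 1 at 108 CPM. The control-diet rise was 1.48-fold (log2 fold change 0.56 ± 0.14 SE, edgeR adjusted p = 0.0055) and the DHA-diet rise 1.62-fold (0.69 ± 0.14 SE, edgeR adjusted p = 5.78e-04). Without DHA-diet ozone library 1 the second was 0.50 (edgeR adjusted p = 6.18e-04). The control-diet call was lost without control-diet air libraries 1 to 3 (0.47, edgeR adjusted p = 0.0820).

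Stat3, the transcription factor itself and one of its own targets, changed by a small share of its level. It ran from 178 to 201 CPM in control-diet air (median 196) and from 203 to 235 CPM in control-diet ozone (median 210), without overlap, as in 7.76% of all genes. With DHA it ran from 190 to 214 CPM in air (median 196) and from 202 to 256 CPM in ozone (median 212), with overlap. The log2 fold changes were 0.15 ± 0.054 SE (edgeR adjusted p = 0.0491) and 0.16 ± 0.054 SE (edgeR adjusted p = 0.0351). Both calls lay close to the threshold. The control-diet call was lost on leaving out any 1 of 18 libraries, that is any but control-diet air library 5, control-diet ozone library 1 or DHA-diet ozone library 1, 2, 4 or 6, with adjusted p from 0.0257 to 0.142 over all 24. It was also lost without control-diet air libraries 1 to 3 (0.19, edgeR adjusted p = 0.0681) and without libraries 4 to 6 (0.10, edgeR adjusted p = 0.265). The DHA-diet call was lost without DHA-diet air library 1, 2, 3 or 6 or DHA-diet ozone library 1 or 2, at log2 fold changes from 0.11 to 0.16, and without DHA-diet ozone libraries 1 and 2 together it was 0.07 (edgeR adjusted p = 0.284). Averaged over diets Stat3 rose 1.11-fold (edgeR adjusted p = 0.00228) and kept its call in every alternative run at that threshold.

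**Figure D3:**
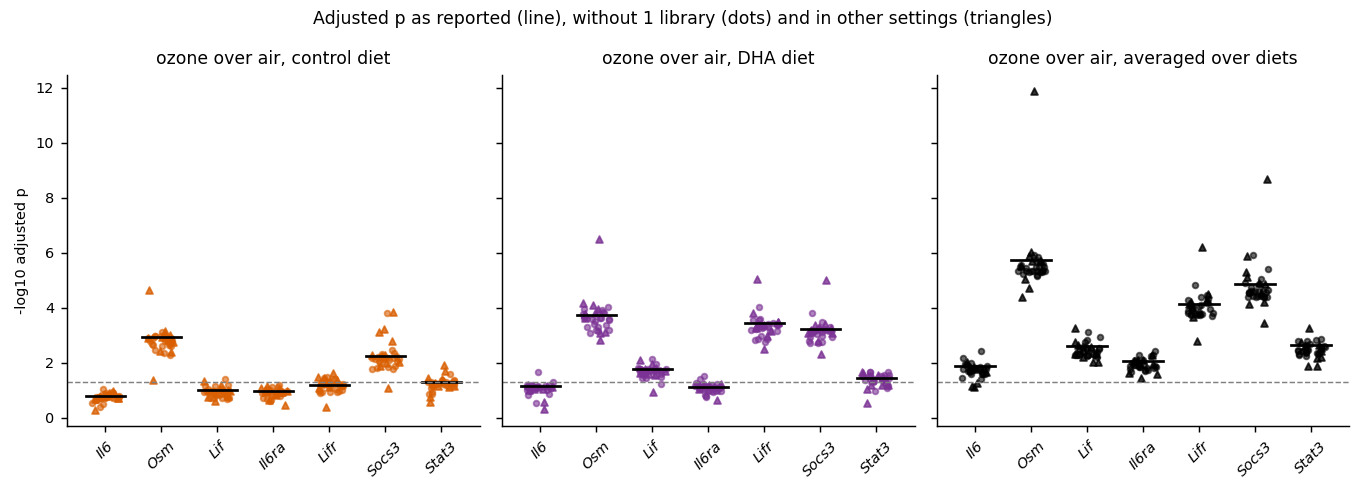
Adjusted p (y axis, as -log10) of 7 genes in the 3 ozone comparisons (panels) as reported (black lines), leaving out 1 library at a time (dots) and under the other alternatives (triangles). The dashed line is the threshold of 0.05. Osm stays above the line throughout, whereas Stat3 on each diet straddles it.

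Markers of several cell types moved with ozone beside these genes. Of all genes 8.93% were called higher and 7.87% lower on the control diet, and 12.7% and 11% on the DHA diet. Beside these shares 1 called marker in a list says little. The summed level of 10 alveolar macrophage markers ran from 407.2 to 483.2 CPM in the air libraries of both diets and from 526.6 to 691.2 CPM in the ozone libraries, with 2 of 10 markers called higher on the control diet (Chil3 and Mrc1) and 3 on the DHA diet (the same genes and Marco). Most of the gap between the sums was that of 1 gene, Chil3, a chitinase-like protein, whose mean went from 139 to 257 CPM on the control and from 144 to 262 CPM on the DHA diet. The median log2 fold change of the 10 markers was 0.21 and 0.0398, and Fabp4, at 56.3 and 40.4 CPM in air and ozone on the control diet, was not called (edgeR adjusted p = 0.102). The neutrophil sum ran from 55.2 to 204.2 CPM in control-diet air, from 60.21 to 171.7 in control-diet ozone, from 48.56 to 86.01 in DHA-diet air and from 78.35 to 364.8 in DHA-diet ozone. In control-diet air the highest was library 5, with the others from 55.2 to 86.21 CPM. In control-diet ozone libraries 1 and 6 held 171.7 and 130.8 CPM, with the others from 60.21 to 81.18 CPM. Of its 9 tested markers 1 was called higher on the control and 7 on the DHA diet, and Ly6g, the tenth, held 0 to 6 counts in a library and was at 0 in 5 libraries. The sum of 8 interstitial macrophage and monocyte markers overlapped between all 4 groups, from 211.7 to 312.2 CPM. Of these markers 2 were called higher on the control diet (median log2 fold change 0.116). On the DHA diet 1 was called higher and 1 lower (median 0.101). There mean Csf1r, the largest part of the sum, went from 93.1 to 82.8 CPM and C1qa from 32.4 to 41.4 CPM. Of 7 alveolar type 2 markers 5 were called higher on the control diet (median log2 fold change 0.316) and 2 on the DHA diet (0.129), and of 5 alveolar type 1 markers 3 were on each diet. Of 5 smooth muscle markers 1 was called higher on the control diet and 4 on the DHA diet (median 0.397). Their summed level had a median of 622 CPM in DHA-diet air and of 762.6 CPM in control-diet air. Between the diets in air, 2 smooth muscle markers were called lower with DHA (median log2 fold change -0.295). In that comparison 4 alveolar type 2 markers were called higher (median 0.299), beside 0.427% of all genes lower and 0.724% higher. On the control diet 1 of 6 adipocyte and 1 of 5 cardiac muscle markers were called lower (medians -0.594 and -0.316). The DHA diet gave 0 calls in both lists (medians -0.00131 and -0.0377). Of 5 mesothelium markers 1 was called higher on each diet (medians 0.34 and 0.113). The fibroblast, club and ciliated, endothelium, T and NK cell and B cell lists had at most 1 called marker on either diet. The part of these cell types in the changes of the family genes was not tested. Without the 2 libraries of high neutrophil markers, the DHA-diet change of Osm was 1.03 (edgeR adjusted p = 0.00155) and that of Lifr was -0.35 (edgeR adjusted p = 6.84e-04). The DHA-diet change of Socs3 was then 0.53 (edgeR adjusted p = 6.19e-04). The calls of Lif and Stat3 were lost, and the uncalled change of Il6 was 0.46 in place of 1.03 (edgeR adjusted p = 0.492).

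**Figure D4:**
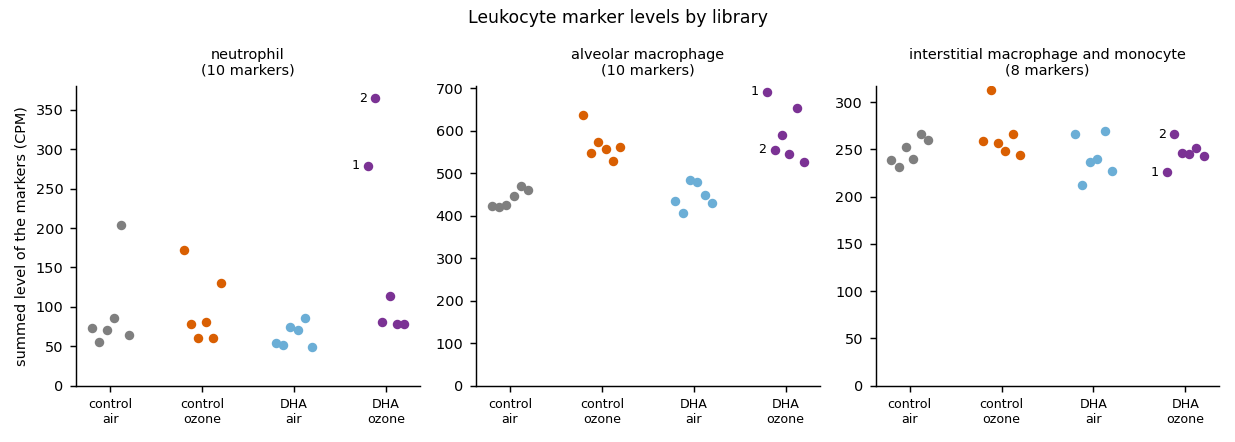
Summed level in CPM (y axis, from 0) of the markers of neutrophils, alveolar macrophages, and interstitial macrophages and monocytes in each of the 24 libraries by group (x axis). Numbers mark DHA-diet ozone libraries 1 and 2, which have the highest neutrophil sums, and ozone libraries lie above all air libraries in the alveolar macrophage sum, where Chil3 alone rose from a mean of 139 to 257 CPM on the control diet.

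Genes that act on the same pathway were described from lists, whose counts stand beside 16.8% of all genes called on the control diet and 23.7% on the DHA diet. The lists were written with earlier results of these data known, so their counts are descriptions and not a test of the pathway. Of 23 tested target genes of interleukin-6 and STAT3, 9 rose and 1 fell on the control diet, with a median log2 fold change of 0.202, and 11 rose and 1 fell on the DHA diet, with a median of 0.276. Timp1, an inhibitor of matrix metalloproteinases, rose 4.09-fold on the control diet, from 5.74 ± 1.67 to 23.4 ± 5.61 CPM (log2 fold change 2.03 ± 0.27 SE, edgeR adjusted p = 3.07e-05). It rose 4.42-fold on the DHA diet, from 7.60 ± 1.34 to 33.5 ± 17.8 CPM (edgeR adjusted p = 5.49e-06). Lcn2, an iron-sequestering defence protein, rose 2.47-fold and 2.64-fold, and Lrg1, a secreted glycoprotein of the acute phase, 2.32-fold and 2.52-fold on the control and the DHA diet. For these 3 genes ozone and air libraries did not overlap on either diet, as in 7.76% of all genes on the control and 9.03% on the DHA diet. Hp, the haemoglobin-binding haptoglobin, rose 1.31-fold on the control diet. Serpina3n, a protease inhibitor of the acute phase, rose 2.29-fold on the DHA diet, a value that was 0.80 on the log2 scale in place of 1.197 without ozone library 1, which held 284 CPM. The gene that fell was Vegfa, a growth factor for vessels, named after its values were seen, to 0.864-fold on the control and 0.829-fold on the DHA diet. Junb, Ccnd1, Saa3, Hif1a and Serpina3n were the other genes called higher on the control diet, and Bcl3, Junb, Cebpd, Myc, Saa3, Hp and Fgg those on the DHA diet.

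Of 5 other STAT genes 2 fell on each diet and 0 rose. Stat2, a transducer of interferon signals, fell after ozone to 0.777-fold in control-diet mice (log2 fold change -0.36 ± 0.089 SE, edgeR adjusted p = 0.00582) and to 0.769-fold on the DHA diet (edgeR adjusted p = 0.00287). Stat6, the factor of interleukin-4 and interleukin-13, fell to 0.924-fold and 0.914-fold, from 141 ± 1.497 to 130 ± 1.68 CPM on the control diet. Among 8 kinases, adaptors and sheddases, 1 rose and 1 fell on each diet. Grb2, an adaptor to the Ras pathway, rose 1.10-fold and Tyk2, a Janus kinase, fell to 0.861-fold on the control diet, and on the DHA diet the values were 1.08-fold and 0.856-fold. The DHA-diet call of Grb2 was lost without DHA-diet air library 1 (0.10, edgeR adjusted p = 0.0524), and with library totals in place of TMM neither call of Grb2 stood.

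Of 12 other feedback inhibitors 0 rose and 1 fell on the control diet, and 2 rose and 1 fell on the DHA diet, which beside 16.8% and 23.7% of all genes says nothing particular of the list. Pias3, an inhibitor of STAT3, fell to 0.833-fold on the control diet (edgeR adjusted p = 0.0019) and to 0.895-fold on the DHA diet (edgeR adjusted p = 0.0366), where the call was lost on leaving out any 1 of 9 libraries. Ptpn2 and Ptpn1, phosphatases that act on Janus kinases and STATs, rose 1.15-fold and 1.11-fold on the DHA diet (edgeR adjusted p = 0.0122 and 0.0160). The other ligands were lower or not called. Il27, an interleukin of dendritic cells and macrophages, held 9 to 25 counts in control-diet air and 0 to 6 in control-diet ozone libraries (log2 fold change -2.16 ± 0.54 SE, edgeR adjusted p = 0.0069). On the DHA diet it held 1 to 21 and 0 to 11 counts. The DHA-diet value of -0.53 ± 0.48 SE was not called (edgeR adjusted p = 0.454). Nor was the difference between the diets (edgeR adjusted p = 0.788). Il27 reached the filter's minimum count of 10 mostly in air libraries, and so entered the test through the groups where it was high. Clcf1, a ligand of the ciliary neurotrophic factor receptor, fell to 0.690-fold on the DHA diet, from 15.1 ± 1.76 to 10.4 ± 0.416 CPM (edgeR adjusted p = 8.21e-05). Its DHA-diet air and ozone libraries did not overlap, as in 9.03% of all genes. Its control-diet value was -0.24 (edgeR adjusted p = 0.0533), which was called on leaving out any 1 of 8 libraries. Among the 3 tested receptor genes Il27ra fell to 0.765-fold on the DHA diet (edgeR adjusted p = 0.0308), a call lost without DHA-diet air library 1, 3 or 5 or DHA-diet ozone library 5 or 6. Its control-diet value was -0.23 (edgeR adjusted p = 0.241), and 0 receptor genes were called on that diet. Il11ra1, the interleukin-11 chain, had 0.14 (edgeR adjusted p = 0.246). Too few counts were found to test Cntf, Il31, Il31ra, Fga and Fgb, with 0 counts of Il31 in all 24 libraries.

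**Figure D5:**
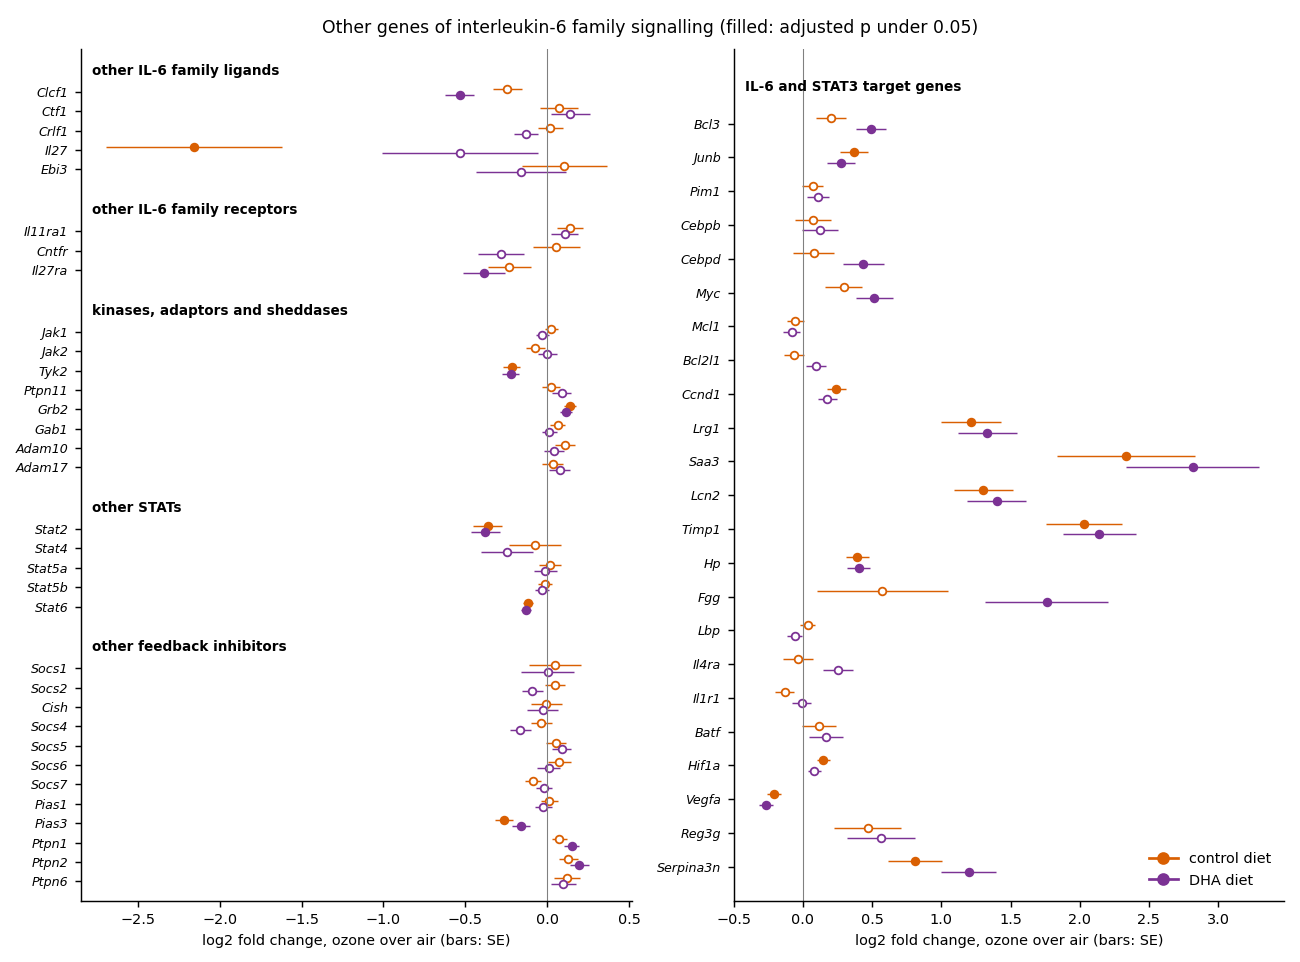
Fitted log2 fold change of ozone over air (x axis, bars SE) for the other genes of the pathway by list on the control and the DHA diet. Filled points are called. The targets Timp1, Lcn2 and Lrg1 are to the right on both diets, and Stat2, Stat6, Tyk2 and Pias3 to the left.

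The diets were then compared within each exposure. In filtered air 0 of the 10 genes were called, where 1.15% of all genes were (0.724% higher and 0.427% lower on the DHA diet), and 0 had an unadjusted p under 0.05 in edgeR. Air libraries of the 2 diets overlapped for all 10 genes, whereas they did not for 1.85% of all genes. DESeq2 and limma-voom also called 0. The 95% intervals of the folds, DHA over control diet, ran from 0.511 to 1.92 for Il6 and from 0.846 to 1.56 for Osm, and were narrowest for Stat3, from 0.955 to 1.11.

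After ozone 0 of the 10 genes differed between the diets by edgeR at the adjusted threshold, as was true of all 16153 genes (0%), of which 2260 had an unadjusted p under 0.05. DESeq2 called 75 genes and limma-voom 19, and 0 of them were family genes. Lifr was the 1 family gene with an unadjusted p under 0.05 in the edgeR test. It was lower on the DHA diet, at 77.7 ± 5.83 against 90.2 ± 4.79 CPM (log2 fold change -0.22 ± 0.060 SE, edgeR adjusted p = 0.169). All 6 DHA-diet ozone libraries, up to 84.1 CPM, lay below all 6 control-diet ozone libraries, from 85.04 CPM, as happened for 0.83% of all genes. Osm was 1.24-fold as high on the DHA diet, with a 95% interval from 0.949 to 1.63 (edgeR adjusted p = 0.465). For Socs3 the interval ran from 0.950 to 1.39 and for Il6 from 0.642 to 1.90.

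The interaction, whether the ozone change differed between the diets, was called for 0 family genes and 0 of all genes (0%) by edgeR, with 0 and 988 at an unadjusted p under 0.05. DESeq2 called 5 and limma-voom 2 genes, 0 of them of the family. Lifr had the largest deviation from 0 relative to its error, with a log2 difference of -0.16 ± 0.085 SE (edgeR adjusted p = 0.846). The intervals were wide: the ratio of the 2 ozone folds, DHA over control diet, ran from 0.717 to 1.63 for Osm, from 0.832 to 1.44 for Socs3 and from 0.474 to 2.62 for Il6. That Lif and Lifr were called on the DHA diet and not on the control diet is therefore not shown to be a difference between the diets. The 2 ozone comparisons set different libraries against each other, whereas the averaged comparison uses those of both. All come from 1 fit whose spread is estimated over all 24 libraries, so their p-values are not independent.

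Across the 24 libraries, DHA-diet ozone library 1 had the highest level of 6 of the 10 genes (Il6, Lif, Osmr, Il6st, Socs3 and Stat3) and library 2 that of 3 (Osm, Il11 and Il6ra). Library 1 also had the lowest sum of club and ciliated cell markers, 58400 CPM, where the other libraries of its group ran from 85540 to 116100 CPM. Most of this sum was 1 gene, Scgb1a1, at 53931 CPM in library 1. The genes whose log2 CPM was most like that of Socs3 were Tubb5, a tubulin (Pearson r = 0.941, Spearman rho = 0.898), Rrm1, a subunit of ribonucleotide reductase (0.940 and 0.880), and H2ax, a histone variant (0.939 and 0.924). With group means removed, r was 0.848, 0.852 and 0.851. Nearest to Osmr were Pign, an enzyme of glycolipid anchor synthesis (r = 0.846, rho = 0.731), Slc39a14, a zinc and iron transporter (0.844 and 0.746), and Gda, guanine deaminase (0.839 and 0.615). Their r was 0.838, 0.845 and 0.895 with group means removed. These are descriptions over 24 libraries that share groups, depth and makeup. DHA-diet ozone library 1 was the highest of 24 for both Socs3 and Osmr, and likeness without it was not computed.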

How the data were processed

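RNA-seq libraries of whole mouse lung were grouped by the diet and exposure in the labels, 6 per group. Per the submitters' processing notes, reads were handled in Partek, aligned with STAR to mm39 and counted per gene with HTSeq. Not given in the sources used here were tool versions, annotation and strandedness. As deposited, the table holds whole, unnormalized counts per gene, except that Scgb1a1 is written to 3 significant digits.

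Genes were filtered with filterByExpr (minimum count 10, minimum total 15), scaled by TMM and tested by the quasi-likelihood method of edgeR 4.0.16 (R 4.3.3), with 1 mean per group over 24 libraries and 20 residual degrees of freedom. Benjamini-Hochberg adjustment ran over all 16153 genes, and calls were at 0.05. A standard error is the root of the squared log2 fold change over F. CPM use TMM-scaled library sizes, and log2 CPM for likeness used a prior count of 2. Exon lengths are from GENCODE vM21 and promoters from RefSeq (GRCm38.p6). The test was tested on simulated data.

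The 10 genes, the pathway lists, the markers and the libraries left out together were chosen with earlier results of these data known. Named beside the 10 were up to 4 called genes with the smallest p per list and comparison, otherwise the 2 with the smallest p, and the 3 genes most like Socs3 and Osmr. Some genes the rule names for the diet comparisons are not described, and 1 gene of the lists is not reported here. Alternatives were RLE scaling, library totals, no low-count filter, keeping genes at 1 CPM or more in at least 6 libraries, the replicate number as a block, limma-voom (limma 3.58.1) with quality weights, DESeq2 1.42.0, 2 groups alone, an adjusted p under 0.01, leaving out each library, and leaving out control-diet air libraries 1 to 3 or 4 to 6 or DHA-diet ozone libraries 1 and 2. Figures used Python 3.11.15 and matplotlib 3.10.9.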

Additional observations from a re-analysis of the deposited data

Results flagged for a closer look

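In each group of 6 libraries the gap of the highest or the lowest library to the nearest other was divided by the range of the group, for the 10 genes and 4 groups. Of 40 such sets 2 passed the critical value of 0.625. Among this many sets some can pass by chance, and how many was not worked out. In control-diet ozone, library 6 had 4.069 CPM of Osm, with the other 5 libraries between 2.34 and 2.78 CPM (gap over range 0.746). In DHA-diet ozone, library 1 had 458.8 CPM of Il6st, with the others between 303.3 and 351.1 CPM (gap over range 0.693).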

How the results depend on the processing

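The count of the 10 genes called for ozone on the control diet, 3 in the report, was 5 with limma-voom (4 higher and 1 lower) and 1 without control-diet air libraries 1 to 3, and ran from 2 to 4 on leaving out 1 library. On the DHA diet the count of 5 was 3 without ozone libraries 1 and 2 and 3 at an adjusted p under 0.01, each with 2 higher and 1 lower, and ran from 3 to 6 on leaving out 1 library, with 3 without ozone library 1. Averaged over diets the count of 7 ran from 7 to 8 on leaving out 1 library. It was 6 with limma-voom, without control-diet air libraries 1 to 3 and without DHA-diet ozone libraries 1 and 2. At an adjusted p under 0.01 it was 6 too. With the 1 CPM filter it was also 6, since Il6 did not pass that filter and was not tested. For both diet comparisons and the interaction the count was 0 in every fit that left out 1 library. Directions turned only for uncalled values. On the control diet, without air libraries 1 to 3, Il11 was at -0.17, Il6st at 0.077 and Il11ra1 at -0.021, and Il6st ran from -0.069 to 0.016 on leaving out 1 library. On the DHA diet Osmr was at -0.027 with limma-voom and -0.10 without ozone libraries 1 and 2, and from -0.033 to 0.16 on leaving out 1 library. Il6st was at -0.033, at -0.084, and from -0.063 to 0.063 in the same fits. The averaged call of Il6 was also lost with limma-voom (adjusted p = 0.0524). The cause was not tested.

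Replicate numbers showed no sign of pairing. With group means removed, same-numbered libraries had a mean correlation of -0.0169 (lowest -0.21), beside 0.00341 for other pairs between groups. Of 24 libraries 0 lay closest to one of their own number. A pairing that leaves no common pattern in expression would not be seen this way. With the replicate block the counts were 2 on the control diet, 4 on the DHA diet and 7 averaged. Stat3 then had 0.16 (edgeR adjusted p = 0.0777) and 0.15 (edgeR adjusted p = 0.0637). With library totals, the share of called genes that were higher was 35.1% in place of 53.2% for ozone on the control diet, 41.6% in place of 52.2% averaged, and 38.9% in place of 62.9% for diet in air, with Stat3 uncalled on both diets (edgeR adjusted p = 0.170 and 0.0658). At this depth Il6, Il11 and Il27 rest on 0 to 40 counts per library, and how much of their spread is counting error was not tested.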
